A study of Homo sapiens with 4 samples.

Results

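The genes described here are 8 that encode parts of the machinery of inflammatory and lytic cell death: the sensor NLRP1, the adaptor PYCARD, the proteases CASP1, CASP4 and CASP8, and the pore formers GSDMD, GSDME and MLKL. They were taken by symbol from the 61228 genes in the count files. All 8 were present, and all 8 passed the filter on low counts that kept 19159 genes for testing. The libraries are from H1792, an established human lung cancer cell line labelled as wild type. Cells stood for 96 h either in DMSO, the solvent control, or in ACBI1, a degrader that carries the chromatin remodelling ATPases SMARCA2 and SMARCA4 and the subunit PBRM1 to the VHL ubiquitin ligase. Each group held 2 libraries. The dose of ACBI1 is written as 1 mM, a unit that the counts cannot check. Only this line was used, and the labels do not say whether the replicates were separate cultures, so p-values measure the spread between these libraries, which may be technical.

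Inflammasomes are platforms that form in the cytosol when a sensor such as NLRP1 meets a danger signal. Many sensors recruit the adaptor ASC, the product of PYCARD, which gathers caspase-1. Caspase-1 cuts the cytokines IL-1beta and IL-18 into their active forms and also cuts gasdermin D, whose freed end makes pores in the plasma membrane, the lytic death called pyroptosis. Caspase-4 binds bacterial lipopolysaccharide in the cytosol and cuts gasdermin D without an inflammasome sensor. Gasdermin E makes pores of the same kind when a caspase of apoptosis cuts it. Caspase-8 starts apoptosis at death receptors and holds back necroptosis, in which the kinase RIPK3 activates the pore former MLKL.

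Gene counts summed to between 64281850 and 86010100 per library. The transcripts of SMARCA2, SMARCA4 and PBRM1, whose proteins the compound is aimed at, had log2 changes of -0.40, 0.70 and 0.10, none of them past the threshold (edgeR adjusted p 0.163, 0.0583 and 0.734; SMARCA4 passed in 7 of 10 other fits), and transcripts do not check a loss of protein. Markers fixed for other cell types were counted because inflammasome genes are best known from myeloid cells. The 10 leukocyte markers each lay under 1 CPM (counts per 1000000 counts, scaled by TMM) in every library. Their sum was 0.626 to 1.39 CPM with DMSO and 0.763 to 0.860 CPM with ACBI1. CD3E had no count. Only 3 of these markers had enough counts to be tested, and none of those was called. Of 10 lung epithelial markers, 5 lay under 1 CPM in every library, among them NKX2-1 with no count. The sum was 982 to 1035 CPM with DMSO and 202 to 323 CPM with ACBI1 (6 tested, 4 called lower, all keratins). EPCAM went the other way without a call, at 5.38 and 2.78 CPM with DMSO and 15.6 and 4.84 CPM with ACBI1 (log2 change 1.32, edgeR adjusted p 0.179). The sum of 6 fibroblast markers, mostly type I collagen transcripts, was 995 to 1951 CPM with DMSO and 88.8 to 274 CPM with ACBI1. All 6 were tested, and 3 were called lower. The sum of 4 endothelial markers was 12.7 to 49.0 CPM with DMSO, nearly all of it PECAM1, and 0.107 to 0.123 CPM with ACBI1. Of the 3 tested, 2 were called lower. PECAM1, VWF and the fibroblast marker DCN passed the filter on low counts through the DMSO libraries alone, so only a fall could be called for them. Of all genes tested, 10.6% were called lower and 6.75% higher. With ACBI1, PECAM1 was at 0.0112 and 0.0458 CPM and KDR at 0.112 and 0.0610 CPM. The labels name only H1792, so these genes are read as transcripts of that line and not as a count of cell types. Their part in the changes given next was not tested. In bulk libraries, fewer cells that make a transcript and less of it per cell cannot be told apart.

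Transcripts of 5 of the 8 genes fell with ACBI1 and none rose: CASP1, NLRP1, CASP4, GSDME and GSDMD. CASP8, MLKL and PYCARD did not pass the threshold. A gene counts as fallen or risen when its adjusted p in edgeR's quasi-likelihood test, with Benjamini-Hochberg adjustment over all 19159 genes, is under 0.05. By this rule 10.6% of all genes tested were lower, 6.75% were higher and 17.4% were called in either direction. The median log2 change was -1.08 for the 8 genes and 0.01 for all genes tested. In 6 of the 8, both ACBI1 libraries lay below both DMSO libraries, as did 32.2% of all genes tested. The genes were picked with earlier results of these libraries known, and no test was made of the group as a whole.

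**Figure D1:**
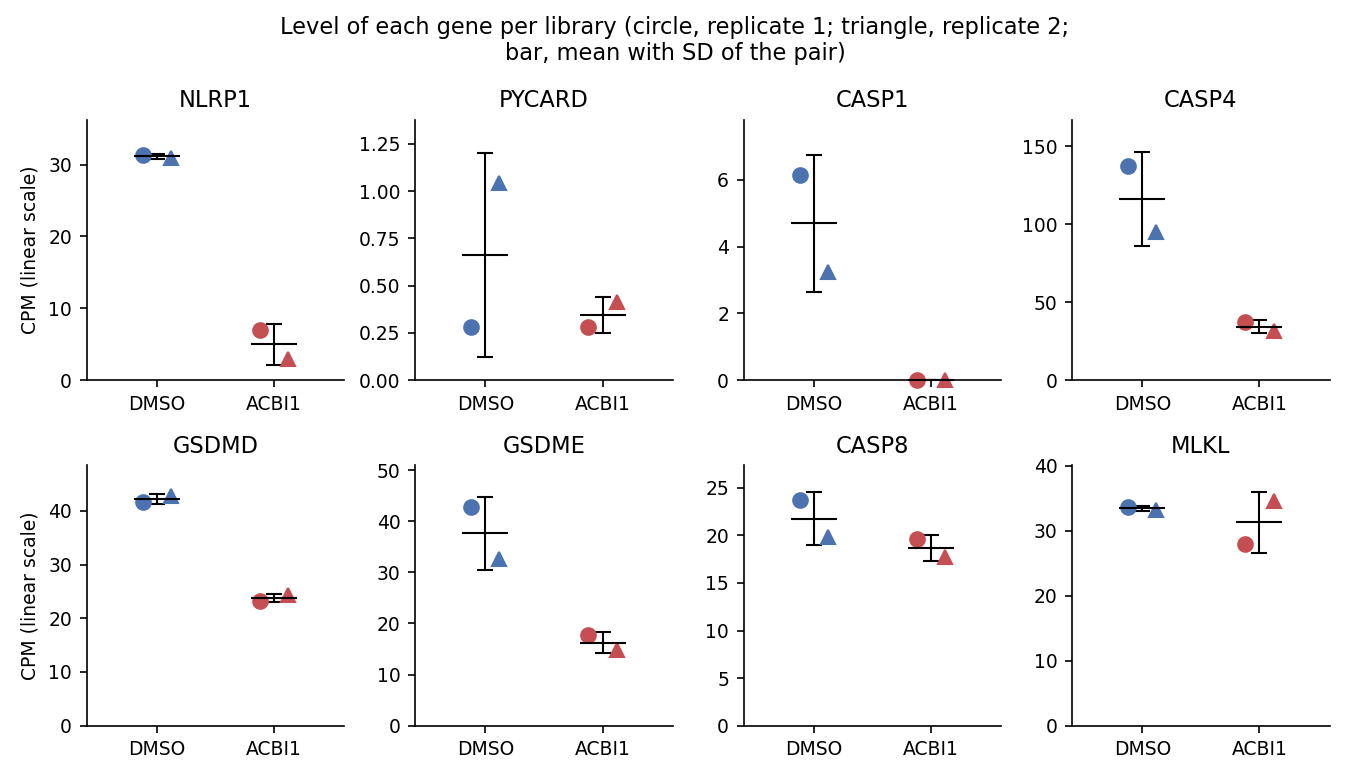
CPM (linear scale, from 0) of each of the 8 genes in the 2 DMSO and 2 ACBI1 libraries; points are libraries and bars are the mean with the SD of the pair. CASP1 went from 6.15 and 3.25 CPM to 0.0112 CPM and 0, NLRP1, CASP4, GSDMD and GSDME have ACBI1 points well below the DMSO points, and the points of PYCARD and MLKL overlap between groups.

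The sensor gene NLRP1 encodes a protein that cuts itself and is freed to act when its front part is destroyed by the proteasome, and it is the main inflammasome sensor of human surface epithelia. NLRP1 was at 31.4 and 30.9 CPM in DMSO replicates 1 and 2 and at 7.03 and 2.96 CPM in ACBI1 replicates 1 and 2. The DMSO libraries lay close together and far above both ACBI1 libraries, which themselves differed. NLRP1 fell from 31.1 ± 0.357 to 4.99 ± 2.88 CPM (SD, n = 2). Its fitted log2 change was -2.63 ± 0.41 (SE; 95% interval -3.63 to -1.64; edgeR adjusted p 0.0118). Its change depended on the ACBI1 library: leaving out ACBI1 replicate 1 gave -3.39, leaving out replicate 2 gave -2.16, and the call held both ways. Of all genes tested, 3.73% had a lower log2 change.

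PYCARD, which encodes the adaptor ASC, had few counts throughout. Its counts were 23 and 75 with DMSO against 25 and 27 with ACBI1, or 0.282, 1.04, 0.279 and 0.412 CPM. DMSO replicate 2 alone stood high, and the groups overlapped. The log2 change of -0.94 (SE 0.68) was not called (edgeR adjusted p 0.381), its 95% interval ran from -2.59 to 0.71, and without DMSO replicate 2 it was 0.28. The antisense gene PYCARD-AS1, which held 4 to 11 counts in a library, shares 59.7% of the exonic length of PYCARD. Since the strand setting of the counting is not given in the sources used here, reads of the pair cannot be told apart. Reads in the shared part may also have been given to neither gene, so the level of PYCARD may be understated.

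CASP1, the caspase of inflammasomes that cuts IL-1beta, was nearly lost from the ACBI1 libraries. It had 501 and 234 counts with DMSO (6.15 and 3.25 CPM), against 1 and 0 counts with ACBI1. Both DMSO libraries were far above both ACBI1 libraries, although replicate 1 held more than replicate 2. The ratio of counts per library size, DMSO over ACBI1, was 743 (exact 95% interval for counting error 133 to 29390). As fitted, the log2 change was -9.20 ± 0.79 (SE; edgeR adjusted p 0.00265). It rests on that single ACBI1 count and so depends on the prior count: leaving out ACBI1 replicate 1 gave -11.42, and leaving out replicate 2 gave -8.54. Only 0.146% of the genes tested had a lower value. CASP1 passed the filter on low counts through its DMSO libraries alone, so only a fall could be called for it.

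CASP4, the cytosolic lipopolysaccharide sensor and protease, was, per exonic length, the most abundant of the 8 genes with DMSO. DMSO replicates 1 and 2 had 137 and 94.7 CPM of it, ACBI1 replicates 1 and 2 had 37.5 and 31.3 CPM. The groups were apart by more than the gap within either. CASP4 fell from 116 ± 30.1 to 34.4 ± 4.38 CPM (SD, n = 2), to 29.6% of the DMSO mean. Its fitted log2 change was -1.75 ± 0.23 (SE; edgeR adjusted p 0.00770). Leaving out a library moved the log2 change between -2.0 and -1.46, and the gene was called in each case.

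CASP1 and CASP4 lie in the cluster of inflammatory caspase genes on chromosome 11, with CASP5 between them, CASP4 at chr11:104942866-104968574 and CASP1 at chr11:105025443-105036686 (RefSeq, GRCh38.p14). The other genes of the cluster were rare or not detected. CARD16, which encodes a decoy much like the front part of caspase-1, had 35 and 28 counts with DMSO and 0 in both ACBI1 libraries, so that it was at least 21.2-fold lower with ACBI1 against a floor of 3 counts over the group (edgeR adjusted p 0.0104). CASP5 had 9 and 1 counts with DMSO and 0 and 1 with ACBI1, a ratio of 10.1 (95% exact counting interval 1.44 to 439). CASP12 had 3 counts in DMSO replicate 2 and none in the others, and CARD17P and CARD18 had none in any library, which allows up to 0.0335 to 0.0458 CPM. CASP1, CARD16 and CARD17P are close copies in part, so reads that align to several of them may have been lost or shared, and the split of counts between them is uncertain.

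Promoter sequences ran from 250 bases before to 50 bases after a start. They were taken from RefSeq's GRCh38.p14 for 5 of the members, and not for CASP1, NLRP1 or GSDMD. They are shown for CASP4 and GSDME, which fell, and for the first of 3 starts of CASP8, which was not called, because they show how unlike the promoters of these genes are. Capitals mark matches, on either strand, to 4 motifs: TGANTCA for AP-1, GAAA, 2 bases of any kind and GAAA for an interferon-stimulated response element, TTCNNNGAA for a STAT site, and GGG, 5 bases of any kind and CC for NF-kB, whose matches can overlap each other.
CASP4, chr11:104968525-104968824, minus strand: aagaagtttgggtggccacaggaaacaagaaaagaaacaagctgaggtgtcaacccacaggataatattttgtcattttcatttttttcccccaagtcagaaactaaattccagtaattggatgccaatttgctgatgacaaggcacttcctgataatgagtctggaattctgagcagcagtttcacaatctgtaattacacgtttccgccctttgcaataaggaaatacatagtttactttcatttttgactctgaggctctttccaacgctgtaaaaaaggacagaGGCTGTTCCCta
GSDME, chr7:24757415-24757714, minus strand: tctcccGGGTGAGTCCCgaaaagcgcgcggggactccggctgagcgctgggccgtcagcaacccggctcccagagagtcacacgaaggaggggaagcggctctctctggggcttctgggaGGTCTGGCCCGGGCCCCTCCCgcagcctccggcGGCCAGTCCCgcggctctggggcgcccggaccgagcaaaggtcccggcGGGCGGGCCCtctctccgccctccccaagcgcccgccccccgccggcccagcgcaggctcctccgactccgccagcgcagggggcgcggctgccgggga
CASP8, chr2:201233213-201233512, plus strand: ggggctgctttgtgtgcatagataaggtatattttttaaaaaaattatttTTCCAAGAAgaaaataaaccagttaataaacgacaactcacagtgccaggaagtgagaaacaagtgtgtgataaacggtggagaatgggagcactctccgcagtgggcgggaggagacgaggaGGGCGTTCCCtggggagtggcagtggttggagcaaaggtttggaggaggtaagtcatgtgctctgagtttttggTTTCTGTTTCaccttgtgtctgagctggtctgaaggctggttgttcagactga

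The CASP4 promoter holds 3 CpG dinucleotides and the GSDME promoter 35, against a median of 14 over 35116 promoters of the same length. The first CASP8 promoter holds 6, that of MLKL 9 and that of PYCARD 23. In CASP4 only the NF-kB letters were found, once and after the start, and in GSDME they were found 7 times. These letters are loose and occur in 58.7% of all promoters. The first CASP8 promoter has 1 match each to the response element, STAT and NF-kB letters, which occur in 3.57%, 7.66% and 58.7% of promoters, and the 2 other CASP8 promoters have 1 AP-1 match each (7.71% of promoters), the later of them also 1 to the NF-kB letters. A match is a run of letters, not a bound site, and the counts do not tell which start of CASP8 was used.

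GSDMD, the pore former cut by caspase-1 and caspase-4, was at 41.6 and 42.9 CPM with DMSO and at 23.3 and 24.4 CPM with ACBI1. Libraries of a group were nearly equal, and the groups did not overlap. GSDMD fell from 42.2 ± 0.883 to 23.8 ± 0.750 CPM (SD, n = 2), to 56.4% of the DMSO mean. Its fitted log2 change was -0.83 ± 0.15 (SE; edgeR adjusted p 0.0195). The size hardly moved when a library was left out, but the call was lost without ACBI1 replicate 1 (log2 change -0.79, edgeR adjusted p 0.0990) and without ACBI1 replicate 2 (log2 change -0.87, edgeR adjusted p 0.0661).

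GSDME, the gasdermin that can turn apoptosis into lytic death, was at 42.7 and 32.6 CPM with DMSO and at 17.6 and 14.8 CPM with ACBI1. Again both ACBI1 libraries were below both DMSO libraries. GSDME fell from 37.6 ± 7.16 to 16.2 ± 2.03 CPM (SD, n = 2), to 43.1% of the DMSO mean. Its fitted log2 change was -1.21 ± 0.21 (SE; edgeR adjusted p 0.0156). With each library left out in turn it stayed called, at log2 changes from -1.40 to -1.01.

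CASP8 was at 23.7 and 19.8 CPM with DMSO and at 19.6 and 17.7 CPM with ACBI1. The ACBI1 libraries were the lower ones, but the gap between DMSO replicate 2 and ACBI1 replicate 1 was small beside the spread within either group. The log2 change of -0.22 (SE 0.19) was not called (edgeR adjusted p 0.460), and its 95% interval ran from -0.68 to 0.24. MLKL was at 33.7 and 33.1 CPM with DMSO and at 27.9 and 34.6 CPM with ACBI1, so that the groups overlapped. MLKL was not called, at a log2 change of -0.10 ± 0.17 (SE; 95% interval -0.52 to 0.33; edgeR adjusted p 0.746), and without ACBI1 replicate 1 the log2 change was 0.05.

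**Figure D2:**
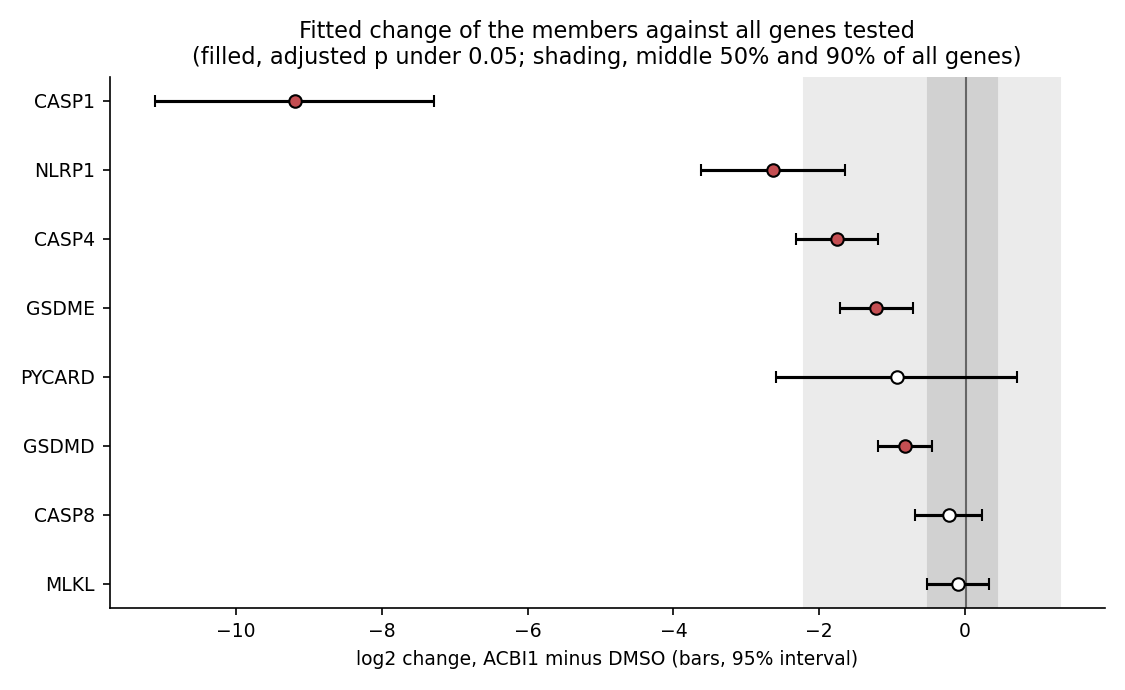
Fitted log2 change, ACBI1 minus DMSO, of the 8 genes with its 95% interval (points filled where the adjusted p is under 0.05), over bands that hold the middle 50% and 90% of all 19159 genes tested. CASP1 (-9.20) and NLRP1 (-2.63) lie below the wider band, and the intervals of PYCARD, CASP8 and MLKL cross 0.

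Levels of different genes were compared as CPM per kb of exonic length in GENCODE 29, which may not be the annotation behind the counts. With DMSO the order was CASP4 (16.0 CPM per kb), GSDMD (8.26), MLKL (5.87), GSDME (4.26), CASP8 (3.0), NLRP1 (2.43), CASP1 (1.27) and PYCARD (0.399). No neighbours in that order overlapped between their libraries. With ACBI1 the order was MLKL (5.49 CPM per kb), CASP4 (4.74), GSDMD (4.66), CASP8 (2.58), GSDME (1.83), NLRP1 (0.390), PYCARD (0.208) and CASP1 (0.00151). There the libraries of CASP4 overlapped those of MLKL and those of GSDMD, while MLKL and GSDMD did not overlap, and NLRP1 overlapped PYCARD. CASP4 thus stood clear at the top of the order with DMSO and did not with ACBI1.

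Summed over the 12 caspase genes, the level was 46.1 and 43.5 CPM per kb in the DMSO libraries and 26.9 and 27.1 CPM per kb in the ACBI1 libraries. CASP4 made up 41.0% and 30.0% of that sum with DMSO and 19.2% and 15.9% with ACBI1. CASP8 made up 7.11% and 6.28%, and then 10.1% and 9.04%. Summed over the 6 gasdermin genes, the level was 14.2 and 13.3 CPM per kb with DMSO and 8.48 and 8.44 CPM per kb with ACBI1. GSDMD held the largest share in every library, between 53.7% and 63.0%, while that of GSDME was 33.9% and 27.7% with DMSO and 23.5% and 19.8% with ACBI1. The share of GSDMB, whose pore is released by a granzyme of killer lymphocytes, was 4.76% and 5.91% with DMSO and 14.6% and 19.7% with ACBI1.

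**Figure D3:**
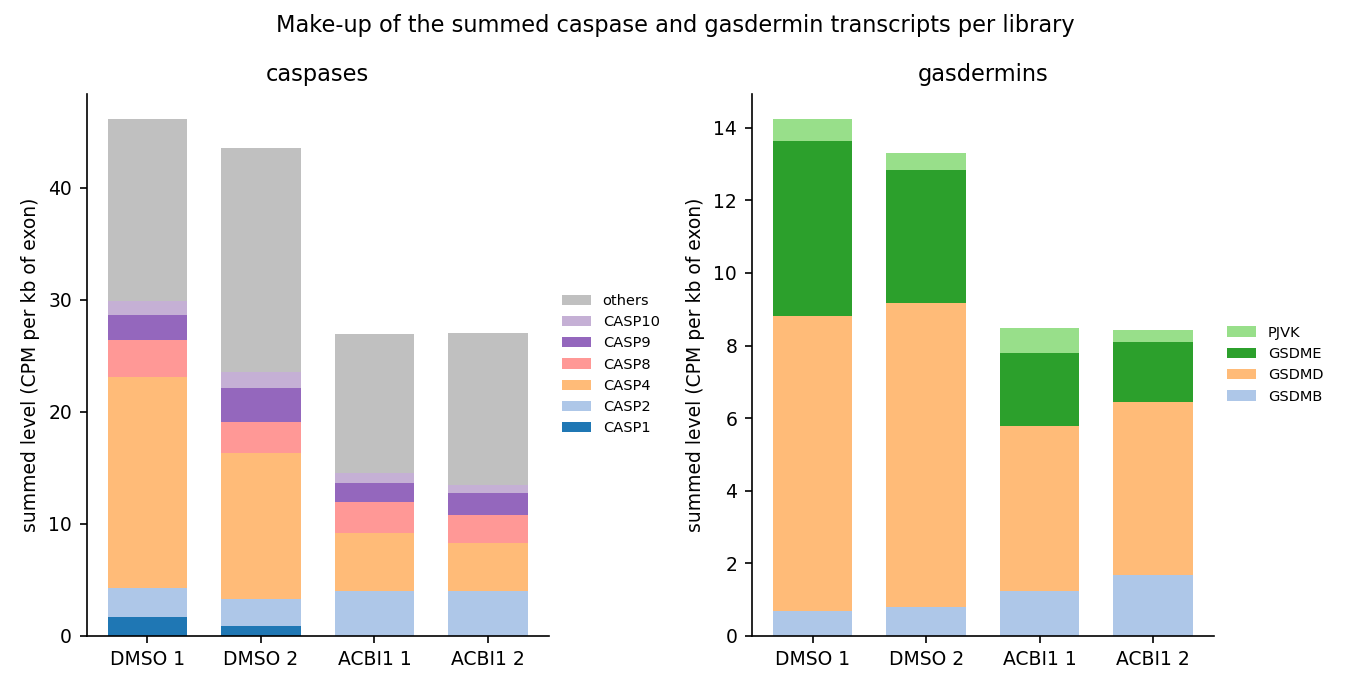
Summed level (CPM per kb of exonic length) of the caspase genes, left, and the gasdermin genes, right, in each library, split by gene, with caspase genes other than CASP1, CASP2, CASP4, CASP8, CASP9 and CASP10 drawn together as others. The caspase sum goes from 46.1 and 43.5 with DMSO to 26.9 and 27.1 with ACBI1, with the CASP4 segment shrinking most, and the gasdermin sum from 14.2 and 13.3 to 8.48 and 8.44.

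The other genes of these pathways were followed in 7 lists with 64 genes, of which 45 were tested. Of these, 12 were lower and 3 were higher, against 10.6% and 6.75% of all genes tested, and the median log2 change was -0.45. Counts in each list below stand beside the same shares. CARD16, MEFV, IL37 and IL1B passed the filter on low counts through the DMSO libraries alone, so only a fall could be called for them. Among 20 further inflammasome sensors and regulators, 9 were tested, 2 were lower and none was higher, with a median log2 change of -0.27. The lower ones were CARD16, given with the chromosome 11 cluster, and MEFV, which encodes the sensor pyrin. MEFV had 50 and 34 counts with DMSO and 1 and 3 with ACBI1, a log2 change of -4.28 (edgeR adjusted p 0.0132), which was -3.52 when ACBI1 replicate 1 was left out and -5.43 when replicate 2 was. Of the best known sensors, NLRP3 had 2 counts in DMSO replicate 1 and none elsewhere, NLRC4 had 8 and 5 counts with DMSO and 2 and 2 with ACBI1, and AIM2 had 6 and 35 counts with DMSO and 0 and 4 with ACBI1, all too few to be tested. NLRP7, CARD17P, CARD18 and PYDC1 had none in any library.

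Genes that act on these sensors were present. CARD8, a sensor built like the end of NLRP1, was at 18.4 and 19.7 CPM with DMSO and at 16.9 and 17.3 CPM with ACBI1 (log2 change -0.16, edgeR adjusted p 0.576). DPP8 and DPP9, the peptidases that hold NLRP1 and CARD8 inactive, had log2 changes of -0.53 (edgeR adjusted p 0.0584) and 0.32 (edgeR adjusted p 0.210), and NEK7, the NLRP3 partner, one of -0.27 (edgeR adjusted p 0.257). DPP8 passed with DESeq2 (adjusted p 0.0423), with a mean of at least 5 CPM required (edgeR adjusted p 0.0446) and with the replicate number as a block. TXNIP, which is known to bind NLRP3, was not called (edgeR adjusted p 0.144). It had 31075 and 3016 counts with DMSO and 5039 and 1175 with ACBI1. Its log2 change of -2.51 was -0.17 without DMSO replicate 1 and, called, -3.36 without DMSO replicate 2 (edgeR adjusted p 0.0017). TXNIP was also called with every gene that had a count and with the replicate number as a block.

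Of the 9 other caspases, 6 were tested, 1 was lower and 1 was higher, with a median log2 change of -0.46. CASP2, a caspase tied to centrosome and DNA damage signals, rose from 19.9 ± 0.903 to 32.2 ± 0.0936 CPM (SD, n = 2), with a fitted log2 change of 0.69 (edgeR adjusted p 0.0350) whose call was lost without any of the 4 libraries, at adjusted p from 0.0645 to 0.151. CASP10, the neighbour and relative of CASP8, had a log2 change of -0.64 (edgeR adjusted p 0.139).

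Of 5 further genes for pores and membrane rupture, 3 were tested and 1 was lower. NINJ1, whose product breaks the plasma membrane after gasdermin pores have formed, fell from 67.0 ± 0.705 to 33.5 ± 6.29 CPM (SD, n = 2). Its log2 change of -1.0 (edgeR adjusted p 0.0189) was -0.82 and not called without ACBI1 replicate 1. GSDMB was at 4.0 and 4.64 CPM with DMSO and at 7.29 and 9.84 CPM with ACBI1, a log2 change of 0.99 that missed the threshold (edgeR adjusted p 0.0601). It passed under library size scaling, with DESeq2, with every gene that had a count, and with the replicate number as a block. GSDMA had no count and GSDMC 1 count in each group.

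Death receptor and necroptosis genes numbered 10, of which 8 were tested, 3 were lower and none was higher (median log2 change -0.53). CYLD, a deubiquitinase that acts on RIPK1, fell from 75.3 ± 4.61 to 30.3 ± 6.04 CPM (SD, n = 2), with a fitted log2 change of -1.31 (edgeR adjusted p 0.0103), and stayed called with each library left out. FADD, the adaptor that recruits caspase-8, had a log2 change of -1.06 (edgeR adjusted p 0.0467), and CFLAR, which encodes the caspase-8 regulator cFLIP, one of -0.61 (edgeR adjusted p 0.0407). Both lost their calls under library size scaling (adjusted p 0.0525 and 0.0603), FADD also without DMSO replicate 2 (-0.90) or ACBI1 replicate 1 (-0.75), and CFLAR without any of the 4 libraries. FADD shares 54.9% and CFLAR 12% of the exonic length with exons of other genes. RIPK3, the kinase upstream of MLKL, had 3 counts in ACBI1 replicate 1 and none in the other libraries, and ZBP1 had 7 and 2 counts with DMSO and 1 and 0 with ACBI1. RIPK1 was at 31.6 and 37.7 CPM with DMSO and at 30.6 and 33.6 CPM with ACBI1, and was not called (edgeR adjusted p 0.700).

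All 7 apoptosome and inhibitor of apoptosis (IAP) genes were tested, and 2 were higher and none lower, with a median log2 change of -0.25. BIRC3, which encodes the IAP ubiquitin ligase cIAP2, was at 136 and 109 CPM with DMSO and at 746 and 356 CPM with ACBI1. It rose by a log2 change of 2.16 (SE 0.37, edgeR adjusted p 0.0154). With ACBI1 replicate 1 left out the value was 1.54, and with replicate 2 left out 2.59, both called. CYCS, which encodes cytochrome c, had a log2 change of 0.75 (edgeR adjusted p 0.0490). Its call was lost without DMSO replicate 2 or either ACBI1 replicate, at adjusted p from 0.133 to 0.163.

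Of 5 cytokines of the IL-1 family, 4 were tested and 3 were lower, with a median log2 change of -6.89. IL1B, the best known substrate of caspase-1, had 52994 and 23111 counts with DMSO and 5 and 1 with ACBI1. IL1A, which other proteases process, had 27640 and 14347 counts and then 137 and 64. IL37 had 31 and 50 counts and then 0 and 1, a ratio of 81.9 (95% exact counting interval 14.3 to 3274). All 3 were called (edgeR adjusted p 0.00126 for IL1B, 0.00141 for IL1A and 0.0119 for IL37). Without ACBI1 replicate 1 or 2 the fitted log2 change was -14.80 or -13.05 for IL1B and -4.99 or -8.45 for IL37, still called. IL18, the other main substrate, was not called: it had 6.03 and 13.0 CPM with DMSO and 5.42 and 6.74 CPM with ACBI1, a log2 change of -0.64 (edgeR adjusted p 0.306). That value was -1.10 and called without DMSO replicate 1 (edgeR adjusted p 0.0461), and 0.01 without DMSO replicate 2.

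Of 8 transcription factors known to act on genes of this group, 2 were lower and none higher (median log2 change -0.57). The log2 change was negative for 5 and positive for 3 of them, and those named below are all among the negative ones. IRF1, a driver of CASP1 and of other interferon-induced genes, was at 172 and 124 CPM with DMSO and at 34.1 and 28.7 CPM with ACBI1, a log2 change of -2.23 (edgeR adjusted p 0.00396). Other genes overlap 22% of its exonic length. STAT2 had a log2 change of -1.78 (edgeR adjusted p 0.0164). IRF2, known to act on GSDMD and CASP4, was at 21.1 and 30.7 CPM with DMSO and at 13.1 and 15.1 CPM with ACBI1, and its log2 change of -0.88 missed the threshold (edgeR adjusted p 0.0531). It was called without DMSO replicate 1 (log2 change -1.12, edgeR adjusted p 0.0140) and was -0.59 without DMSO replicate 2 (edgeR adjusted p 0.198). IRF2 also passed with DESeq2 (adjusted p 0.0115), with every gene that had a count (edgeR adjusted p 0.00315) and with the replicate number as a block.

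**Figure D4:**
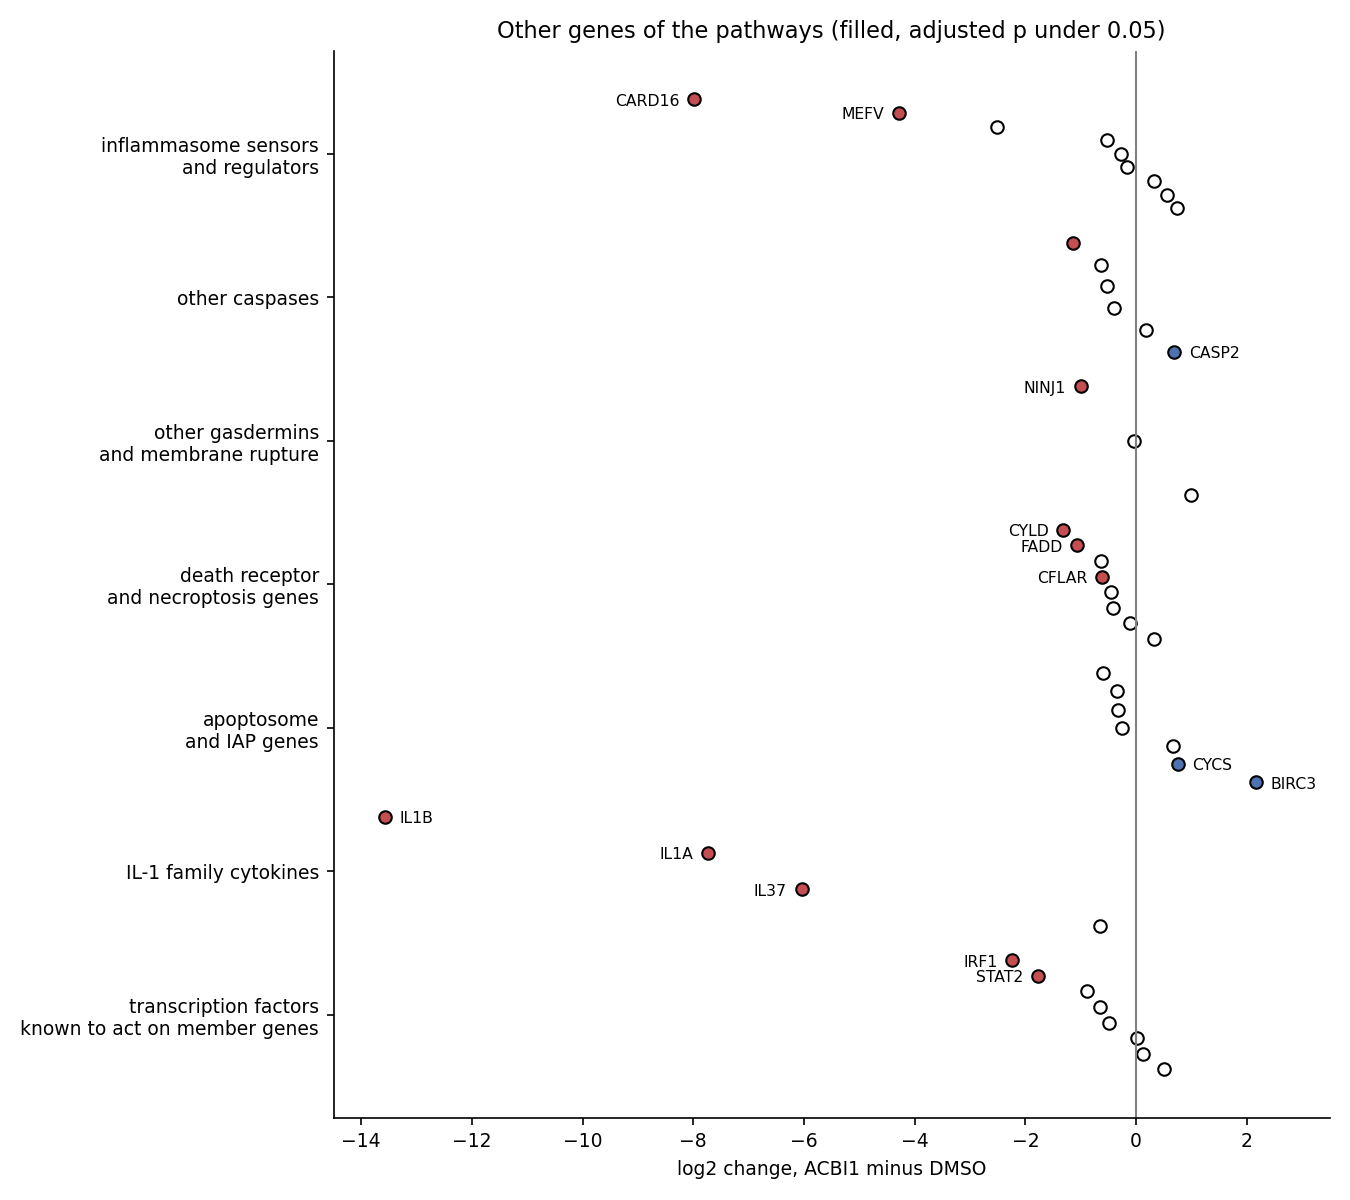
Fitted log2 change, ACBI1 minus DMSO, of the 45 tested genes in 7 lists of related genes; each point is a gene, filled red where called lower, filled blue where called higher and open where not called; not every filled point is labelled. The 12 called lower include IL1B, IL1A, IL37, CARD16 and MEFV at the far left, and the 3 called higher are BIRC3, CYCS and CASP2.

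Among the called members with a mean of at least 5 CPM, NLRP1 had the largest change. Of 11159 other genes with that mean, the 3 whose levels over the 4 libraries were nearest to those of NLRP1 were CAVIN3, ALPK3 and KRT7, at Euclidean distances of 0.115, 0.148 and 0.249 between centred values of log2(CPM + 0.1). Their likeness to NLRP1 in these libraries follows from how they were picked. CAVIN3 was at 20.9 and 20.2 CPM with DMSO and at 4.19 and 1.81 CPM in ACBI1 replicates 1 and 2. KRT7, a keratin among the lung epithelial markers, was at 678 and 680 CPM with DMSO and at 179 and 60.3 CPM with ACBI1.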

How the data were processed

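The deposited values are raw read counts per gene symbol, 1 table per library, plus 5 summary lines for unassigned reads. Per the submitters' processing notes, TopHat2 2.1.1, HTSeq 0.11.0 and the hg38 build were used, with no role stated. The annotation and strand setting are not given in the sources used here. Those summary lines were left out. Gene counts were 84.6% to 86.1% of the reads listed, 3.53% to 5.44% had several alignments and 4.41% to 5.07% were listed as ambiguous. Without a known strand setting, overlapping genes may lose or share reads.

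Genes were kept by filterByExpr (minimum count 10, minimum total 15), scaled by TMM and compared by the quasi-likelihood test of edgeR 4.0.16 (R 4.3.3; two-sided, treatment alone, all 4 libraries). CPM use TMM-scaled library sizes, and the SE is the log2 change divided by the root of F. Intervals of count ratios and the floor of 3 counts describe only counting error, because reads copied by PCR are not separate molecules. Intervals of a log2 change use the moderated degrees of freedom. Exon lengths came from GENCODE 29, and positions and promoters from RefSeq (GRCh38.p14). The file symbol CARD17P stands for the listed gene CARD17. The test was tried on simulated counts. Alternatives were other scalings, filters, DESeq2 1.42.0, limma-voom 3.58.1, robust and newer edgeR fits, a replicate block and each library left out.

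The members, lists and tests were chosen with earlier results of these data known. Named genes are the members, the degrader's targets, at most 4 called genes with the largest change per list, and the 3 genes most like the called member with the largest change at 5 CPM or more. Other pathway genes that are named, and the CpG counts, were chosen after values were seen. Some listed genes enter the counts and are not reported here by name.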

Additional observations from a re-analysis of the deposited data

How the results depend on the processing

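Over 10 other fits on all 4 libraries, each of the 78 values obtained for the 8 members kept its direction and its side of the threshold; with a mean of at least 5 CPM required, CASP1 and PYCARD were not fitted. With each library left out in turn, a lone library is assumed to vary like the other group. Then 28 of 32 values held, GSDMD lost its call without either ACBI1 replicate, MLKL changed sign without ACBI1 replicate 1 (log2 change -0.27 to 0.054 over the 4 fits) and PYCARD without DMSO replicate 2 (-1.60 to 0.28), so that 4 to 5 members were called lower and none higher. At an adjusted p under 0.01, 2 members (CASP1 and CASP4) and 3 pathway genes were called, as were 4.09% of all genes tested. The cause of these losses and turns was not tested.

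The 3331 calls over all genes became 5518 with every gene that had a count, 783 at the threshold of 0.01 and 1682 to 3799 with a library left out. The 15 called pathway genes became 9 to 15 with a library left out. By list, without a block, sensors went from 2 to between 1 and 4, caspases from 2 to between 0 and 2, pore genes from 1 to between 0 and 2, death receptor genes from 3 to between 1 and 4, IAP genes from 2 to between 1 and 3, cytokines from 3 to between 2 and 4 and transcription factors from 2 to between 2 and 3. Other uncalled genes that changed sign with a library left out were IL18 (log2 change -1.10 to 0.011), RIPK1 (-0.23 to 0.022) and PBRM1 (-0.037 to 0.24), each without DMSO replicate 2.

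Replicate numbers are shared between groups, but no label ties them to a batch. Over 19159 genes, which are not independent, the replicate differences of the groups correlated with Pearson's r of 0.442, and of 0.612 over the 11160 genes that averaged 5 CPM or more. With the replicate number as a block, 7909 genes (41.3% of those tested) and 28 pathway genes were called, and the same 5 members. By list the block gave 4 sensors, 4 caspases, 2 pore genes, 5 death receptor genes, 5 IAP genes, 3 cytokines and 5 transcription factors. Among genes named without a call, it called SMARCA2, SMARCA4, TXNIP, DPP8, CASP10, GSDMB and IRF2. Few counts limit what can be said of PYCARD, NLRP3, AIM2 and RIPK3.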

Other observations

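The nearest tested protein-coding genes on either side of each member were taken in RefSeq order. With the untested CASP5 skipped, CASP4, CASP1 and CARD16 follow each other, and all were lower. MIS12, 10.6 kb from NLRP1, was lower by a log2 change of -0.76 (edgeR adjusted p 0.0240). PALS2, 4.16 kb from GSDME, was higher by a log2 change of 0.96 (edgeR adjusted p 0.0251), and OSBPL3 on its other side was not called (edgeR adjusted p 0.224). Neither neighbour of GSDMD, ZC3H3 or MROH6, was called. RFWD3, 4.98 kb from MLKL, was higher by a log2 change of 0.85 (edgeR adjusted p 0.0248). These neighbours were chosen by position after the members' values were seen.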
